A study of Homo sapiens with 21 samples.

Results

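The Hedgehog (HH) co-receptors, ligand-processing genes and GLI modifiers were examined in xenograft tumors of A549-Luc2 cells, a luciferase-tagged derivative of the human lung adenocarcinoma line A549. The set was taken by gene symbol from the deposited raw counts and held 10 genes of the 60651 listed, namely BOC, CDON, GAS1, HHAT, DISP1, STK36, GPR161, CSNK1A1, SPOP and GSK3B. All 10 were found once, and 9 had enough reads to be tested in every comparison. GAS1 was the exception.

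RNA-seq was done on 21 subcutaneous tumors grown in the flank of female athymic nu/nu mice, which lack mature T cells and were 6 to 8 weeks old. Mice were randomized, 10 to a group, at a mean tumor volume of 80 to 100 mm3. Control tumors (n = 7) came from mice given the formulation alone, Oxy186 tumors (n = 7) and Oxy210 tumors (n = 7) from mice given 50 mg/kg of either semisynthetic oxysterol once a day by mouth in that same mixture of DMSO, ethanol, PEG400 and corn oil. All tumors derived from 1 cell line, so the replicates are separate tumors and not separate patients or clones, and 7 tumors of each group of 10 mice were sequenced, from RNA with an integrity number above 8. Only reads assigned to human genes were counted, and how many mouse reads were assigned to them was not tested. In bulk tissue, fewer cells of a type and less RNA per cell cannot be told apart.

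HH ligands are lipid-modified proteins that bind Patched on receiving cells. BOC, CDON and GAS1 are cell-surface co-receptors that help the ligand bind, HHAT attaches palmitate to the ligand, and DISP1 releases it from the cell that makes it. Inside the cell, relief of Smoothened lets GLI transcription factors act in the nucleus. GPR161 holds the pathway off in the primary cilium through cAMP and protein kinase A, CSNK1A1 and GSK3B phosphorylate GLI proteins and so prime their processing or degradation, STK36 is the human counterpart of the fly kinase Fused, and SPOP is the substrate adaptor of a cullin-3 ubiquitin ligase that targets GLI proteins. SPOP, GSK3B and CSNK1A1 also act on many proteins outside this pathway.

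Promoter sequence was read from RefSeq (GRCh38.p14) for all 10 genes as windows of 300 bases that begin upstream of a transcription start and end just past it. Of the 25 windows listed for these genes, 0 held the GLI 9-mer TGGGTGGTC on either strand, which was found in 0.236% of 35116 windows over all genes. The windows of SPOP and GAS1 are printed because SPOP was the member that passed a test below and GAS1 the member with almost no reads. Both are on the minus strand and read 5′ to 3′ along the gene, SPOP at chr17:49678114-49678413 and GAS1 at chr9:86947457-86947756, and capitals mark a CCAAT box.
SPOP: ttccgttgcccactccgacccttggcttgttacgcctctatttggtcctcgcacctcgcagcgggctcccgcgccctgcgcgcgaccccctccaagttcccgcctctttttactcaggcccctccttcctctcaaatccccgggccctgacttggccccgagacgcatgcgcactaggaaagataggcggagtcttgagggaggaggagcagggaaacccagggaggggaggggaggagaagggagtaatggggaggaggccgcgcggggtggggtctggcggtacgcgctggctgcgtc
GAS1: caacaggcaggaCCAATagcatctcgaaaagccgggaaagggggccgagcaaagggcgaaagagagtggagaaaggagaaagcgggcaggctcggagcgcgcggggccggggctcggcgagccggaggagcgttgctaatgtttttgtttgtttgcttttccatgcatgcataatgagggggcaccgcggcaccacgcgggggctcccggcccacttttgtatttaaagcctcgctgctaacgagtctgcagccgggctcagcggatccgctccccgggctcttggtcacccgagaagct
The SPOP window was 66.0% GC and held none of the GC box GGGCGG, the CCAAT box or the TATA box TATAAA on either strand. The GAS1 window was 61.7% GC and held 1 CCAAT box. The median GC content of all windows was 58.7%, and 45%, 34.6% and 11.5% of them held the GC box, the CCAAT box and the TATA box. Among the windows nearest to the other members' gene starts, CDON had 6 GC box matches, the most of the set. A match is a run of letters and not a measured binding site.

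Total counts ranged from 13787493 to 17865119 per tumor and overlapped between groups. All 11 epithelial markers of A549 fixed for this check were at 10 or more counts in every library, and CDKN2A and CDKN2B, which A549 has lost, were at 0 in all 21, while MTAP beside them, the other gene of that list, had 1 to 15 counts (median 3). Of 17 stroma, vessel and immune genes, 8 were under 10 counts in every library, and KDR, CD3E and COL1A2 did not exceed 1 count. In every library 5 of the 17 were at 10 or more counts. These were LUM (566 to 3348 counts), COL1A1 (256 to 1031), ADGRE1 (35 to 100), PECAM1 (14 to 58) and ACTA2 (13 to 50). Summed over the 17 genes, CPM (counts scaled to a fixed library total) was 121 to 240.3 in control, 109 to 271 in Oxy186 and 85.1 to 168 in Oxy210 tumors, and the part of these reads in the results was not tested.

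The members covered a wide range of levels. Scaled to exon length (CPM per kb of merged exons, mean ± SD, n = 21), SPOP stood at 11.2 ± 2.59, CSNK1A1 at 10.2 ± 1.35 and STK36 at 7.70 ± 1.08. GSK3B followed at 4.22 ± 0.486. GPR161 (1.86 ± 0.374), DISP1 (1.65 ± 0.234) and HHAT (1.49 ± 0.265) lay close together. The co-receptors CDON (0.351 ± 0.0828) and BOC (0.158 ± 0.0702) came last among the detected genes. SPOP was above CSNK1A1 in 12 of 21 tumors, GPR161 above DISP1 in 14 and DISP1 above HHAT in 14, so these neighbours did not separate beyond their spread. The steps from GSK3B down to GPR161 and from HHAT down to CDON showed no overlap of the 21 values. Scaled instead to the longest transcript, GPR161 was above DISP1 in 1 of 21 tumors, and STK36 above GSK3B in 13 where merged exons gave 21. SPOP was then above CSNK1A1 in 20 and DISP1 above HHAT in 21. Another gene model on the same strand overlaps 49.3% of the exon bases of CSNK1A1. Its level and its place beside SPOP and STK36 are therefore uncertain by either length. The order of GPR161 and DISP1 thus turned with the length used, and for the other pairs the length changed how many tumors held the order.

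**Figure D1:**
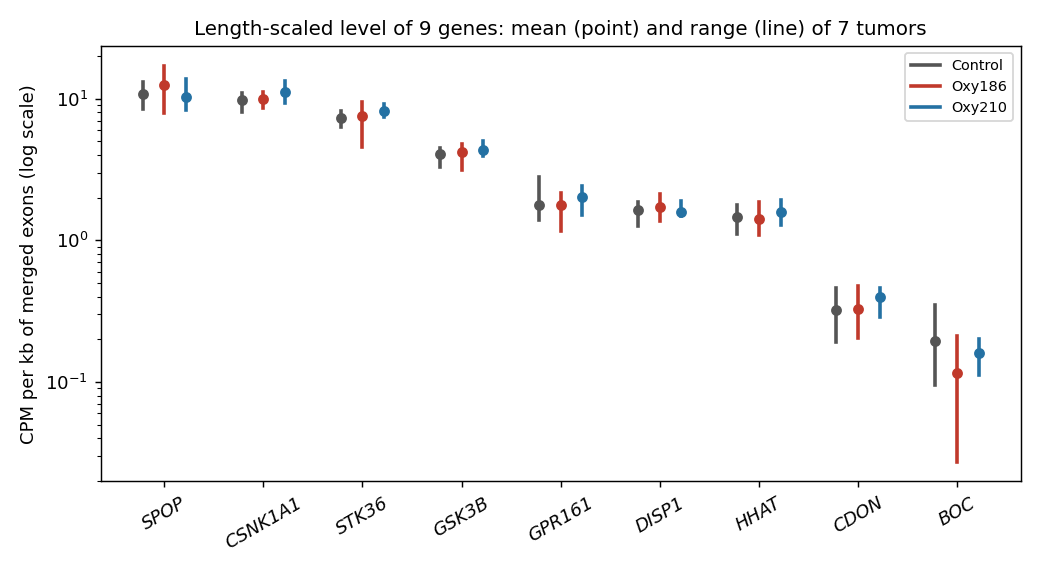
Length-scaled level of 9 members on a log axis (CPM per kb of merged exons), with a point for the mean and a line for the range of 7 tumors in each group. Levels run from about the 11.2 of SPOP to the 0.158 of BOC, and the 3 groups overlap for every gene. The level of CSNK1A1 is uncertain, since another gene model overlaps its exons on the same strand.

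Group differences were tested by fitting the raw counts in edgeR (quasi-likelihood test), adjusted over all genes by the Benjamini-Hochberg method, and a gene was called at an adjusted p at or under 0.05. Levels below are log2 CPM, with a prior count of 2 and TMM scaling. Over all 7 tumors a group, 0 of 9 members were called between Oxy186 and control, against 0% of 16291 genes. No member had an unadjusted p under 0.05 there, compared with 618 genes in all. Between Oxy210 and control 0 of 9 were called, against 0% of 16396 genes, with STK36 as the 1 member at an unadjusted p under 0.05 and 2270 genes in all. Limma voom, which the study used, also called no gene in these comparisons, while DESeq2 called 0 genes for Oxy186 and 21 higher and 71 lower for Oxy210, none of them a member.

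The study carried 4 of the 7 Oxy186 tumors, r1-r4, into its own comparison with control after it had seen their principal components. Values for r1-r4 are therefore a description of that comparison, and their p-values are not independent evidence. In it, 1 of 9 members was called higher, SPOP, where 4.73% of 16852 genes were called higher, and 0 of 9 were called lower, where 15.0% of genes were. The other 8 tested members had adjusted p-values of 0.233 and above.

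**Figure D2:**
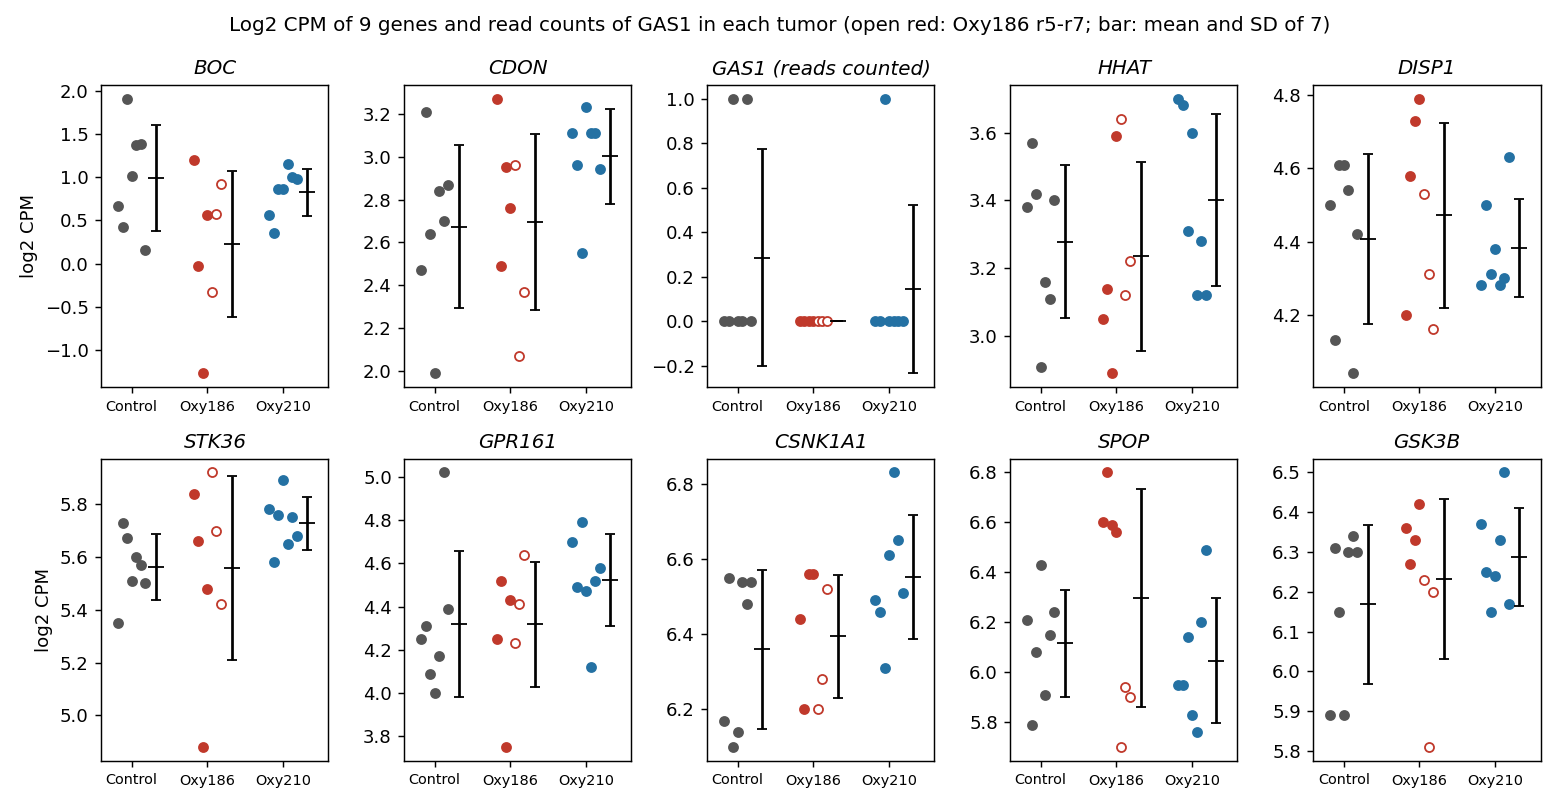
Log2 CPM of each tumor for 9 members and the reads counted for GAS1, by group, with Oxy186 r5-r7 as open circles and the mean and SD of 7 tumors as a bar. SPOP in r1-r4 (6.56 to 6.80) lies above all 7 control tumors (5.79 to 6.43), and GAS1 has 1 read in 3 of 21 tumors.

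The co-receptors were the scarcest members. GAS1, a single-exon gene on chromosome 9 (86944362 to 86947506, GENCODE 44 on GRCh38), had 1 read in control r3, control r6 and Oxy210 r3 and 0 in the other 18 tumors, so no fold change is given. A count of 0 allows up to 3 reads in a library, and these limits cover counting error only. BOC, an immunoglobulin and fibronectin repeat protein encoded on chromosome 3 (113211003 to 113287459), had 14 to 64 counts in control (median 27), 4 to 36 in Oxy186 (median 20) and 17 to 33 in Oxy210 tumors (median 25). Its log2 CPM was 0.99 ± 0.61 (SD, n = 7) in control, 0.23 ± 0.84 in Oxy186 and 0.83 ± 0.27 in Oxy210. The lowest value, -1.27, was Oxy186 r3, and Oxy186 r2 and r5 were also below every control tumor, but the remaining 4 lay within the control range. BOC differed by -0.75 on the log2 scale between Oxy186 and control (SE 0.38, 95% interval -1.56 to 0.05, adjusted p = 0.862), the widest interval of the 9 members in that comparison. With Oxy210 the difference was -0.25 (adjusted p = 0.655). Part of its exon length, 7.7%, overlaps genes on the opposite strand, and the counting is not stated to use strand, so a share of its few reads is uncertain.

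CDON, the related co-receptor on chromosome 11 (125955796 to 126063335), was better covered, with 55 to 158 counts. Log2 CPM ran from 1.99 to 3.21 in control (median 2.7), from 2.07 to 3.27 in Oxy186 (median 2.76) and from 2.55 to 3.23 in Oxy210 tumors (median 3.11). Only the lowest Oxy210 tumor, r3, was under the control median, yet control r2 was nearly as high as the highest Oxy210 tumor and the groups overlapped. CDON differed by 0.33 between Oxy210 and control (SE 0.18, 95% interval -0.04 to 0.69, adjusted p = 0.399) and by 0.01 between Oxy186 and control (SE 0.22, adjusted p = 0.994). VSIG10L2 on the opposite strand overlaps 14.2% of its exon bases.

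Neither gene of ligand processing and release was called in any comparison. HHAT on chromosome 1 (210328252 to 210676296) had a log2 CPM of 3.28 ± 0.23 in control, 3.23 ± 0.28 in Oxy186 and 3.40 ± 0.25 in Oxy210 tumors (SD, n = 7 each). Its log2 fold change was -0.06 (SE 0.16) with Oxy186 and 0.15 (SE 0.14) with Oxy210, with adjusted p-values of 0.947 and 0.626. DISP1, also on chromosome 1 (222815022 to 223005995), stood at 4.41 ± 0.23, 4.47 ± 0.25 and 4.38 ± 0.13 in the same order. Its differences from control were 0.05 (SE 0.14, 95% interval -0.24 to 0.34) with Oxy186 and -0.01 (SE 0.11, 95% interval -0.25 to 0.22) with Oxy210. Each group's range overlapped the others for both genes.

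GPR161, the ciliary brake, lies on chromosome 1 from 168079542 to 168137667. Its log2 CPM ran from 4.0 to 5.02 in control (median 4.25), 3.75 to 4.64 in Oxy186 (median 4.41) and 4.12 to 4.79 in Oxy210 (median 4.52). Control r6 stood alone at 5.02, above every other tumor, and Oxy186 r3 was the lowest. The log2 fold change was -0.03 (SE 0.18) with Oxy186 and 0.20 (SE 0.15) with Oxy210, with adjusted p-values of 0.975 and 0.519.

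Among the kinases, STK36 on chromosome 2 (218672069 to 218702716) came nearest to a difference with Oxy210. Log2 CPM was 5.35 to 5.73 in control (median 5.57) and 5.58 to 5.89 in Oxy210 tumors (median 5.75), so 4 of 7 Oxy210 tumors were above the highest control and the others within its range. The log2 fold change was 0.19 (SE 0.09, 95% interval 0.00 to 0.37) with an unadjusted p of 0.0496 and an adjusted p of 0.359. A two-sided exact permutation test on the means of log2 CPM gave p = 0.0140, adjusted to 0.420 over the 30 tests of 10 members in 3 comparisons, the lowest of them, where 7 tumors against 7 allow 0.000583 at the smallest. Oxy186 tumors spread more widely, from 4.88 in r3 to 5.92 in r5, on both sides of the control range, with a log2 fold change of 0.01 (SE 0.15).

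GSK3B and CSNK1A1 were abundant and varied least. GSK3B on chromosome 3 (119821321 to 120094994) had a log2 CPM of 6.17 ± 0.20 in control, 6.23 ± 0.20 in Oxy186 and 6.28 ± 0.12 in Oxy210 tumors (SD, n = 7 each). Its differences were 0.04 (95% interval -0.22 to 0.31) with Oxy186 and 0.13 (95% interval -0.09 to 0.35) with Oxy210. CSNK1A1 on chromosome 5 (149492982 to 149551471) stood at 6.36 ± 0.21, 6.39 ± 0.16 and 6.55 ± 0.16, which gave differences of 0.01 (95% interval -0.25 to 0.26) and 0.21 (95% interval -0.04 to 0.46). Its control tumors fell into a higher run from 6.48 to 6.55 and a lower one from 6.10 to 6.17. The lower run was control r1, r3 and r4. These had the highest GC slopes of the control libraries (0.40, 0.29 and 0.17), a library property described below. A same-strand gene model, AC021078.1, overlaps 49.3% of the exon bases of CSNK1A1 and drew 201 to 631 counts itself, so the CSNK1A1 count is uncertain. The SD within groups was lower than that of GSK3B in 6.60% of genes and lower than that of CSNK1A1 in 7.10%, against 83.6% for BOC.

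SPOP on chromosome 17 (49598884 to 49678163) was the only member with all of Oxy186 r1-r4 above all control tumors. The 7 control tumors had log2 CPM values of 5.79 to 6.43 with a median of 6.15, from 818 to 1232 counts. Oxy186 r1, r2, r3 and r4 were at 6.60, 6.80, 6.59 and 6.56 (1610, 1578, 1363 and 1480 counts), each above every control tumor. Oxy186 r5, r6 and r7 were at 5.70, 5.94 and 5.90 (786, 898 and 812 counts), in the lower part of the control range or, for r5, just under it. Across the filtered genes, 3.23% had all of r1-r4 above all control tumors. Oxy210 tumors ran from 5.76 to 6.49 (median 5.95) and overlapped the control range. GSK3B also had Oxy186 r1-r4 (6.27 to 6.42) above r5-r7 (5.81 to 6.23), with control tumors at 5.89 to 6.34. The share of all genes with r1-r4 above r5-r7 was not counted, so this gap is not read as particular to GSK3B. GSK3B has 39.9% exon GC, and its log2 CPM fell with the GC slope of the library described below (Pearson's r = -0.72). That slope was negative in all of r1-r4 and positive in all of r5-r7.

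SPOP was 0.51 higher in r1-r4 than in control on the log2 scale (SE 0.13, 95% interval 0.24 to 0.78, adjusted p = 0.0118, edgeR's quasi-likelihood test). Over all 7 Oxy186 tumors the difference was 0.21 (SE 0.17, 95% interval -0.15 to 0.57, adjusted p = 0.862). With Oxy210 it was -0.05 (SE 0.12, adjusted p = 0.876). The change in r1-r4 was below the fold change over 2 that the study asked for.

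Library composition moved with this result and with the first principal component of the 21 libraries, computed here (33.5% of variance). That component was 35.5 to 70.3 in r1-r4 and -60.4 to -17.6 in r5-r7. Control tumors were at -50.6 to 16.0 and Oxy210 tumors at -29.3 to 30.3. Since the study chose r1-r4 after seeing principal components, the GC gap given next is not independent of that choice. Its source was not tested. Each library's GC slope, the mean log2 deviation of its genes from the 21-library average for every 10 points of exon GC percentage, was -0.51 to -0.18 in r1-r4, 0.079 to 0.49 in r5-r7, -0.15 to 0.40 in control and -0.33 to 0.26 in Oxy210 tumors. SPOP has 43.7% GC in its exons, and the 1546 genes within 1 percentage point of it had a median log2 fold change of 0.19 in r1-r4, with 8.09% of them called higher. With offsets that take out the GC trend of each library, SPOP was 0.34 higher (adjusted p = 0.143), 0 of 9 members were called, and 1.79% of all genes were called higher.

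**Figure D3:**
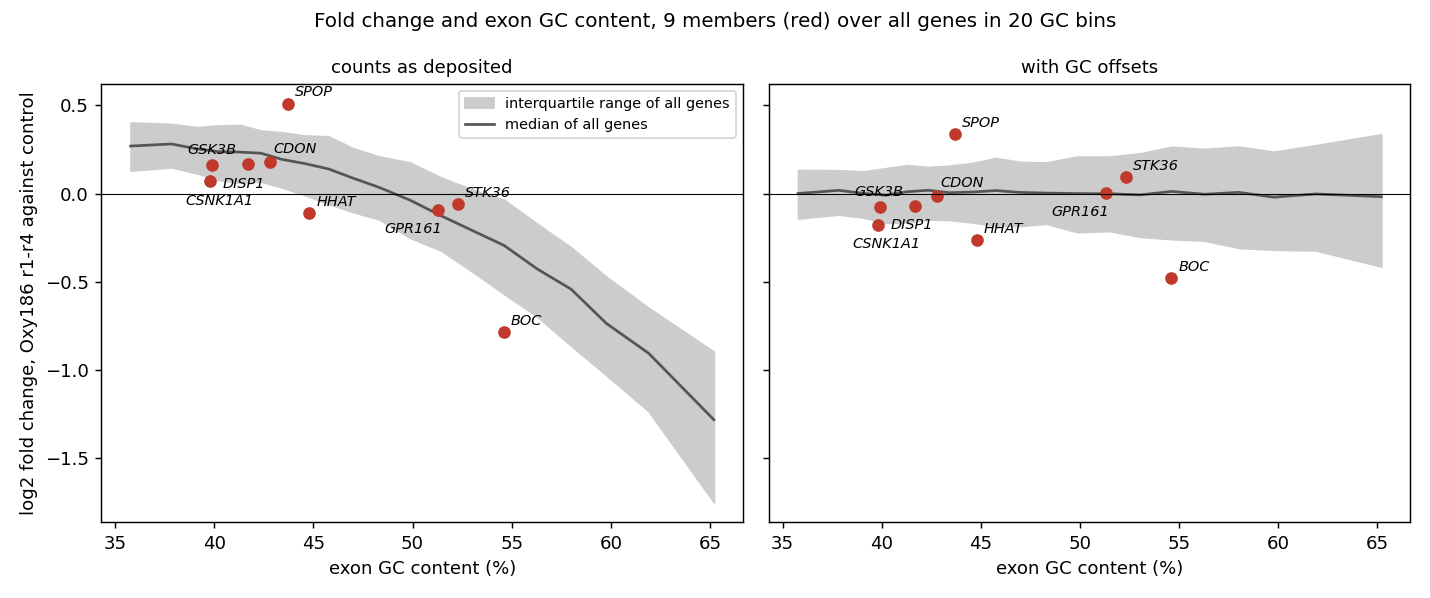
Log2 fold change of Oxy186 r1-r4 against control by exon GC content (%), for counts as deposited (left) and with GC offsets (right), with members in red and the median and interquartile range of all genes in 20 equal bins of GC content in grey. The median of all genes falls from 0.27 in the lowest bin to -1.28 in the highest, SPOP lies above the interquartile range in both panels (0.51 and 0.34), and BOC lies lowest among the members.

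Of the other members, 5 lay within the interquartile range of the genes in the nearest bins of GC content and 3, CSNK1A1, HHAT and BOC, lay below it. GSK3B, CSNK1A1, DISP1 and CDON have 39.8% to 42.8% exon GC and were between 0.07 and 0.18 higher in r1-r4, where genes of like GC content had medians of 0.21 to 0.25. STK36 and GPR161, at 52.3% and 51.3%, gave -0.06 and -0.09 beside medians of -0.16 and -0.11. HHAT (44.8% GC) gave -0.11 beside a median of 0.16, and BOC (54.6% GC) gave -0.79 beside -0.29, neither of them called. BOC was at -1.28 without Oxy186 r1 and -0.47 without r3, and HHAT at -0.019 without r3 and -0.23 without r4. With GC offsets, 6 of the 9 members changed sign, and the median of the 9 went from 0.07 to -0.07 while that of all genes was 0.01 in both. Over the 21 tumors Pearson's r between log2 CPM and the GC slope of the library was -0.72 for GSK3B, -0.60 for CSNK1A1, -0.55 for CDON and -0.47 for SPOP. It was -0.26 for DISP1, 0.17 for HHAT, 0.22 for GPR161, 0.25 for STK36 and 0.34 for BOC. These r values are a description of tumors that share this library property.

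The 2 oxysterols were given at the same dose and schedule, and their difference was tested for each of the 9 genes. Between Oxy186 and Oxy210 0 of 9 members were called, against 0% of 16361 genes, and no member had an unadjusted p under 0.05, compared with 664 genes in all. Voom called no gene and DESeq2 called 13 higher and 1 lower in Oxy186, none of them a member. DESeq2 gave SPOP a p but no adjusted p here, as it does for genes below a cut on mean count. Members with fewer reads than SPOP are then not covered by its result either. DISP1 was 0.09 (95% interval -0.18 to 0.36) and SPOP 0.28 (95% interval -0.09 to 0.66) higher in Oxy186, and the other 7 differences were below 0. GPR161 differed by -0.20 (95% interval -0.50 to 0.09), CSNK1A1 by -0.17 (95% interval -0.41 to 0.06), HHAT by -0.18 (95% interval -0.51 to 0.16) and STK36 by -0.15 (95% interval -0.44 to 0.14). CDON differed by -0.28 (95% interval -0.68 to 0.11), BOC by -0.48 (95% interval -1.18 to 0.22) and GSK3B by -0.06 (95% interval -0.28 to 0.17). Even the interval of GSK3B, the gene with the smallest difference, reaches -0.28, so the compounds are not shown to act alike.

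**Figure D4:**
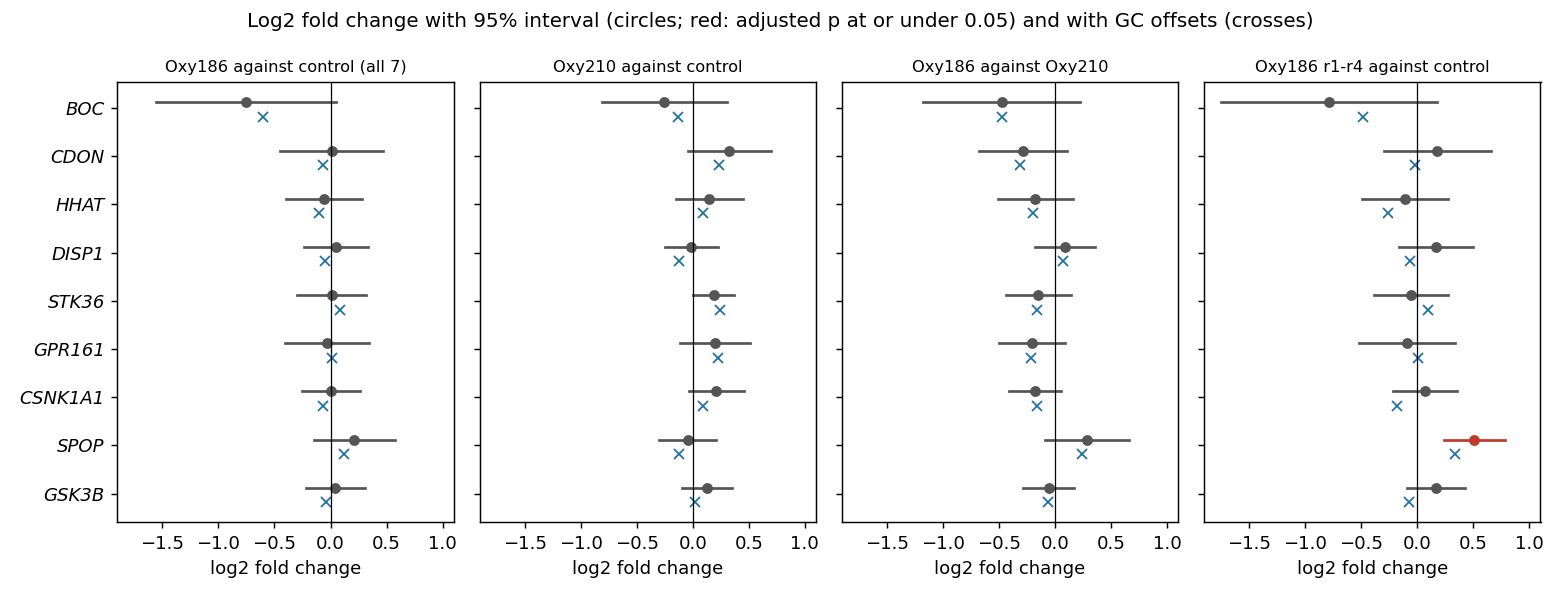
Log2 fold change of 9 members in 4 comparisons, with 95% intervals (circles and lines, red at an adjusted p at or under 0.05) and the value with GC offsets (blue crosses). SPOP in r1-r4 against control (0.51, interval 0.24 to 0.78) is the red point, and BOC has the widest interval in each panel.

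The members were set beside 59 further genes of the HH pathway, listed by role. Of these, 51 were tested between Oxy186 and control, 52 between Oxy210 and control and 50 between the oxysterols, and 0 were called in each (edgeR's quasi-likelihood test). At an unadjusted p under 0.05 there were 0, 6 and 1 of them, beside 3.79%, 13.8% and 4.06% of all genes. In r1-r4, 3 of 52 were called higher and 14 lower, beside 4.73% and 15.0% of all genes, with a median log2 fold change of -0.05 beside 0.01 for all genes. The genes called higher were CUL3, the scaffold that SPOP binds (0.44, SE 0.14, adjusted p = 0.0406), SKP1, a subunit of another cullin ligase (0.55, SE 0.17, adjusted p = 0.0347), and the kinase DYRK1A (0.41, SE 0.13, adjusted p = 0.0348). They have 36.9% to 42.4% exon GC.

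Among the 14 called lower, the smallest p-values were those of the casein kinase CSNK1E (-1.34, SE 0.19, adjusted p = 0.000782), CSNK1G2 (-1.23, SE 0.20), the GLI kinase ULK3 (-1.08, SE 0.18) and the ubiquitin ligase MGRN1, which acts on Smoothened (-1.35, SE 0.24). Their exon GC content was 58.5% to 66.6%. With GC offsets, 2 of 52 were called higher, EVC2 and DYRK1B, and 2 lower, CSNK1E and MGRN1, beside 1.79% and 2.26% of all genes. DYRK1B was called lower without the offsets (-0.71, adjusted p = 0.0251) and higher with them (0.53, adjusted p = 0.0172). CUL3 (0.17) and SKP1 (0.31) were not called with the offsets. The ubiquitin ligase genes, SPOP included, had a median of 0.20 in r1-r4 and 0.05 with GC offsets. Other roles moved further, with -0.51 and 0.06 for receptor and transducer genes and -0.55 and 0.07 for GLI factors and scaffolds. The remaining roles had medians of -0.11 to 0.10, and -0.23 to 0.01 with the offsets.

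The members did not rise and fall together over the 21 tumors. After removal of each library's GC trend, Pearson's r over the 36 pairs ran from -0.63 to 0.60 with a median of 0.21, and 22 pairs were above 0. The highest was CDON with STK36 (0.60, and 0.28 on log2 CPM with the trend left in) and the lowest CSNK1A1 with SPOP (-0.63 and -0.20). With the trend left in, the highest was CDON with GSK3B (0.77, and 0.49 with it removed) and the lowest DISP1 with GPR161 (-0.53 and -0.55). SPOP was below 0 with 7 of the other 8 members. These values describe tumors that share a cell line and, within groups, a treatment.

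**Figure D5:**
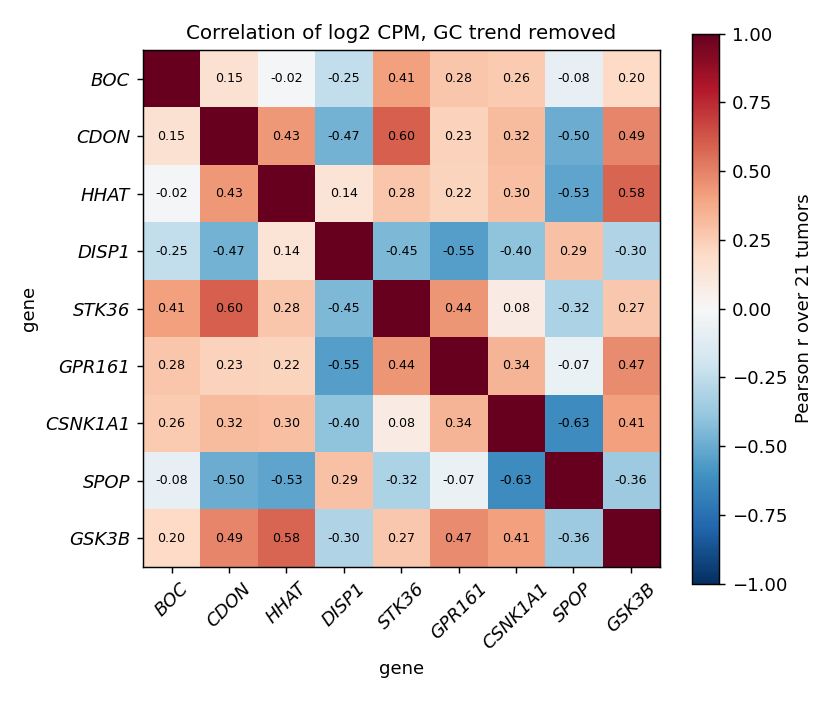
Pearson's r of log2 CPM between 9 members over 21 tumors after removal of each library's GC trend, colored from -1 (blue) to 1 (red). The row of SPOP is mostly blue, with DISP1 (0.29) as the pair above 0, and CDON with STK36 (0.60) is the highest pair.

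Outside the pathway, the gene whose pattern was most like that of SPOP was TM4SF1, a tetraspanin-like membrane protein (r = 0.93 with the GC trend removed and 0.92 on log2 CPM, 21 tumors). CDON was most like GPATCH2L (0.90 and 0.93) and STK36 like ZNF827 (0.90 and 0.58). GPR161 was most like FLNA, an actin crosslinker (0.87 and 0.69). For HHAT, BOC, GSK3B and DISP1 the highest values were 0.78, 0.78, 0.77 and 0.76, with DMWD, PLEKHM3, FOSL2 and CRISP3. The pattern of GSK3B and FOSL2 rested on the trend removal, since r was 0.00 on log2 CPM.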

How the data were processed

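Raw counts for 60651 human genes in 21 tumors were deposited by the authors, who trimmed reads with Trimmomatic 0.39, aligned them with STAR 2.7.6a to a combined human (GRCh38.p13) and mouse genome, kept human alignments and counted unique reads with featureCounts (Subread 2.0.1). The strand setting is not given in the sources used here. The authors also deposited log2 CPM for control tumors and Oxy186 r1-r4. Recomputed values differed from these by at most 4.97e-14.

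Counts were tested in R 4.3.3 with edgeR 4.0.16 (filterByExpr, TMM, quasi-likelihood), with limma 3.58.1 voom and DESeq2 1.42.0 as alternatives. Fits ran over all genes of the compared groups and were tested on simulated data. Total counts of 13787493 to 17865119 set the precision. Positions, lengths and GC content came from GENCODE 44 on GRCh38, with GC values for 99.8% of tested genes. The study's reference used an earlier GENCODE release, so the lengths and overlaps given here can differ from the exons that were counted. GC offsets were splines with 4 degrees of freedom per library, fitted where the mean log2 CPM of a gene reached 1. Other alternatives were RLE factors, library size alone, no filter, 10 counts in every library, all 21 libraries together, a replicate block, the longest transcript, and leaving out tumors of the r1-r4 comparison.

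The members and gene lists were chosen with earlier results of these data known. All 10 members are named, the 2 genes most like each were ranked by r, the first of them is given except for 1 member, whose result is not reported here, and of other pathway genes at most 4 called per direction were named by smallest p. EVC2 and DYRK1B were named after their values were seen.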

Additional observations from a re-analysis of the deposited data

Results flagged for a closer look

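Among the 27 groups of 7 tumors, for 9 genes in 3 treatments, 3 held a tumor that stood apart from the other 6 by Dixon's test at 95%, and chance would flag about 1 in 20 groups, or 1.35. CDON in Oxy210 r3 was the lowest of its group at a log2 CPM of 2.55. GPR161 in control r6 was the highest of its group at 5.02. GSK3B in Oxy186 r6 was the lowest of its group at 5.81.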

How the results depend on the processing

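In the comparisons of all 7 tumors a group, 0 members were called under any alternative that was run. Between Oxy186 and Oxy210, DESeq2 gave SPOP no adjusted p, so that count does not cover it. In r1-r4 against control, the count of called members was 0 in place of 1 when a fold change over 2 was also required, with GC offsets, with the replicate block and with the block and GC offsets. It stayed at 1, SPOP, under the 7 other settings and when any 1 of the 11 tumors was left out, and in the fits that left out a tumor its log2 fold change was 0.46 to 0.58 and its adjusted p 0.00698 to 0.0372. The adjusted p over all alternatives ran from 0.000997 (DESeq2) to 0.542 (block with GC offsets). Samples with the same replicate number did not deviate together (r from -0.40 to 0.33 over 21 pairs, 4 over 0.1), so the numbers are not taken as pairs. The block left SPOP at 0.51 (adjusted p = 0.106), the block with GC offsets gave 0.29 (0.542), and the block moved the calls over all genes in r1-r4 from 797 higher and 2526 lower to 272 and 2101. GC offsets gave 302 higher and 381 lower, the block with GC offsets 15 and 53, DESeq2 1535 and 2850, no filter 418 and 2627, and all 21 libraries 1323 and 2681. Without Oxy186 r3 there were 257 higher and 1618 lower, without r4 347 and 1488, without control r1, r2, r3 or r5 389, 497, 363 and 435 higher, and leaving out 1 of the 11 tumors gave 257 to 1126 higher and 1488 to 2831 lower.

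Signs turned for members near 0, none of them called, and the cause was not tested. In Oxy186 against control, GC offsets gave CDON -0.070, DISP1 -0.046, GPR161 0.014, CSNK1A1 -0.067 and GSK3B -0.043, the block with GC offsets gave -0.065, -0.035, 0.041, -0.072 and -0.039, and STK36 was -0.019 with voom and -0.017 with the block. In Oxy210 against control, library size alone gave DISP1 0.042 and SPOP 0.011. In r1-r4, GC offsets gave CDON -0.016, DISP1 -0.067, STK36 0.095, GPR161 0.0051, CSNK1A1 -0.18 and GSK3B -0.077, the block gave GPR161 0.072, and the block with GC offsets gave DISP1 -0.17, STK36 0.13, GPR161 0.23, CSNK1A1 -0.13 and GSK3B -0.038. Leaving out tumors gave STK36 -0.19 to 0.11 (above 0 without Oxy186 r3) and GPR161 -0.18 to 0.056 (above 0 without Oxy186 r3 or control r6). Depth limits BOC, with 4 to 64 counts, and GAS1, with at most 1.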

Other observations

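The tested genes next to SPOP on chromosome 17 had differences on both sides of 0 in r1-r4. Among the 5 tested genes on either side, SNF8 was called higher (0.46, adjusted p = 0.0343, edgeR's quasi-likelihood test) and IGF2BP1 lower (-0.39, adjusted p = 0.0395). The nearest neighbours, PHB (-0.16) and SLC35B1 (0.04), were not called. These 4 genes were named after their values were seen.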
